A study of Mus musculus with 48 samples.

Results

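The genes described here are 10 genes of the acute-phase response that are read in mouse liver, chosen by symbol. They are the orosomucoid genes Orm1, Orm2 and Orm3, the serum amyloid A genes Saa1, Saa2, Saa3 and Saa4, and Lcn2, Hp and Cxcl1. All 10 were found among the 24453 genes with exon values and among the 20771 genes with intron values. The livers came from C57BL/6 mice 14 weeks old, either wild-type or Nono-/-, kept under a 12 h:12 h light-dark cycle and fed during the dark phase alone for one week. Sampling ran every 2 h over 24 h, so at 12 zeitgeber times (ZT0 is lights on). At each time and for each genotype the livers of 2 mice were pooled and read as 1 library of total and 1 of nuclear RNA, which gives 4 groups of 12 libraries. Nono encodes an RNA-binding protein of the nucleus. The labels do not describe the Nono-/- allele, and they name no Cre or cell type restriction.

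The acute-phase response is the change in blood proteins that follows infection or injury. IL-1, TNF and above all IL-6 act on hepatocytes through NF-kB, STAT3 and C/EBP factors, and the hepatocytes then make more of the positive acute-phase proteins and less of the negative ones, such as albumin. Serum amyloid A rises by orders of magnitude in an acute phase, whereas orosomucoid and haptoglobin are already abundant in healthy liver.

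Reads over exons of total RNA stand mostly for mature messenger RNA. Reads over introns, above all in nuclear RNA, stand as a rule for transcripts that are not yet spliced. The introns of Hp, Saa1, Saa2 and Lcn2 went against this rule, as given below. All levels below are FPKM, reads scaled to the length of the exons or introns and to the depth of the library, so levels of genes can be compared per length. The libraries held 9.91 to 28.94 M reads. The intron share of total RNA reads was 22.1% ± 1.72 in wild type and 18.5% ± 2.41 in Nono-/- (SD, n = 12 each). Exon signal of Nono was 8.74 to 10.7 FPKM in wild-type total RNA and 0 to 0.0910 FPKM in Nono-/- total RNA, so no library went against its label. Hepatocyte markers summed to 30980 to 49580 FPKM in wild-type and 36890 to 50680 FPKM in Nono-/- total RNA, and 0 of the 7 markers were at 0 in all libraries of a group. Because each time point has 1 library, spread was measured around a smooth 24 h curve, and p-values compare differences with the scatter of single pools about that curve. In bulk RNA more cells of a type and more RNA per cell cannot be told apart.

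The orosomucoid genes lie side by side on the plus strand of chromosome 4 (mm10), in the order Orm1 (63344556 to 63348163), Orm3 (63356162 to 63359511) and Orm2 (63362449 to 63365877). The serum amyloid A genes lie together on chromosome 7, with Saa3 (46711998 to 46715676), Saa4 (46727999 to 46732543) and Saa1 (46740499 to 46742980) on the minus strand and Saa2 (46751833 to 46754314) on the plus strand. Lcn2 lies on chromosome 2 (32384637 to 32387739, minus strand), Hp on chromosome 8 (109575128 to 109579172, minus strand) and Cxcl1 on chromosome 5 (90891245 to 90893115, plus strand). None of the 10 overlaps another gene of the tables. The copies within each family are alike: GENCODE transcripts matched by their RefSeq identifiers had 91.0% identical bases between Orm1 and Orm2, 88.0% between Orm2 and Orm3, 86.1% between Orm1 and Orm3 and 93.9% between Saa1 and Saa2. Of all stretches of 50 bases in the Orm1 transcript 20.4% also occur in Orm2 and 2.20% in Orm3, and 13.2% of those of Saa1 occur in Saa2. No source used here says how reads matching several genes were counted. The split of signal among Orm1, Orm2 and Orm3, and between Saa1 and Saa2, is therefore uncertain. Of the stretches of Orm3 2.21% occur in Orm1 and 3.59% in Orm2. Median exon levels in wild-type total RNA were 732 FPKM for Orm1 and 3.33 FPKM for Orm3. Reads of Orm1 counted for Orm3 could move the Orm3 exon levels and exon ratios given below, and this was not tested.

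Orm2 and Orm3 are neighbouring copies of which Orm3 was called between genotypes and Orm2 was not. Saa1 and Saa2 moved together. Cxcl1 had its highest total RNA exon library at another time than every other member, in each genotype. The 200 bases before the start in the RefSeq table are shown for these genes. For Orm3 that start lies a few bases before the start in the expression files. They are RefSeq sequences of build GRCm38.p6, written 5′ to 3′ on the strand of the gene. Capitals mark matches to the C/EBP motif TTGCNNAA or to the NF-kB motif, on either strand. The windows are chr4:63362249-63362448 (plus) for Orm2, chr4:63355958-63356157 (plus) for Orm3, chr7:46742981-46743180 (minus) for Saa1, chr7:46751633-46751832 (plus) for Saa2 and chr5:90891045-90891244 (plus) for Cxcl1.
Orm2: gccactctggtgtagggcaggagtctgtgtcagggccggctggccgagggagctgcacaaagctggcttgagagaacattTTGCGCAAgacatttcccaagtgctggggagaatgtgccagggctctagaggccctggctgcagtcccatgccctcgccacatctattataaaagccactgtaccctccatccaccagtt
Orm3: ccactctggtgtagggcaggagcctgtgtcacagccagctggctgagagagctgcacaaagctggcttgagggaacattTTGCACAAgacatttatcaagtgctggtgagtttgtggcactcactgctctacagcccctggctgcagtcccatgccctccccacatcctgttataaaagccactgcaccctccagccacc
Saa1: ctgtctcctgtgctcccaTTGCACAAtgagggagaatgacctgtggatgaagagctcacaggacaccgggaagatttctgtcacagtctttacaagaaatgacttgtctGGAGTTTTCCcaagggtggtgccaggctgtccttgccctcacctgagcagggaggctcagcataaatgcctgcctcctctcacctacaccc
Saa2: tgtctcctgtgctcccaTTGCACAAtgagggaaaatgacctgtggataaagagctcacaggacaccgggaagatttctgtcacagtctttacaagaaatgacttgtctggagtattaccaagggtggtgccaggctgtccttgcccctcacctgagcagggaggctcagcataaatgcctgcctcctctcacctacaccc
Cxcl1: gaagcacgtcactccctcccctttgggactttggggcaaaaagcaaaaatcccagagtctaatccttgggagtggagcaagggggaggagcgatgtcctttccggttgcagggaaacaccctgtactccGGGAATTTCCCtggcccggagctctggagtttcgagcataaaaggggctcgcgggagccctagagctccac
Orm2 and Orm3 were 84.4% identical over this window, and each had 1 C/EBP match at nearly the same place, from -120 to -113 in Orm2 and from -121 to -114 in Orm3, counted back from that RefSeq start. Saa1 and Saa2 were 97.0% identical and shared a C/EBP match, from -182 to -175 and from -183 to -176. Saa1 also had an NF-kB match from -91 to -82 that was not in these letters of Saa2. Cxcl1 had no C/EBP match and 2 overlapping NF-kB matches between -71 and -61. A C/EBP match lay in 7.47% and an NF-kB match in 7.96% of the windows of this length before 32851 starts in the same table. The STAT motif TTCNNNGAA, in 5.49% of all windows, had 0 matches in the 8 windows of members that had an entry. A match of letters is no measurement of binding.

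The members span a wide range of levels in total RNA. In wild type, by the median of the 12 libraries, they were in the order Hp, Orm1, Saa4, Saa1, Saa2, Orm2, Lcn2, Saa3, Cxcl1 and Orm3, from 1081 FPKM for Hp to 3.33 FPKM for Orm3. Of the 9 steps in this order, the ranges of neighbours were apart only at that from Orm1 to Saa4. In Nono-/- livers the order was Hp, Orm1, Saa1, Saa4, Saa2, Orm2, Lcn2, Orm3, Cxcl1 and Saa3, from 1342 to 7.07 FPKM, and all neighbours overlapped. Within the orosomucoid family Orm1 made up 93.7% ± 4.09 (SD, n = 12) of the summed FPKM in wild type and 93.6% ± 3.47 in Nono-/-. Orm3 made up 0.491% ± 0.243 and 1.12% ± 0.321.

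**Figure D1:**
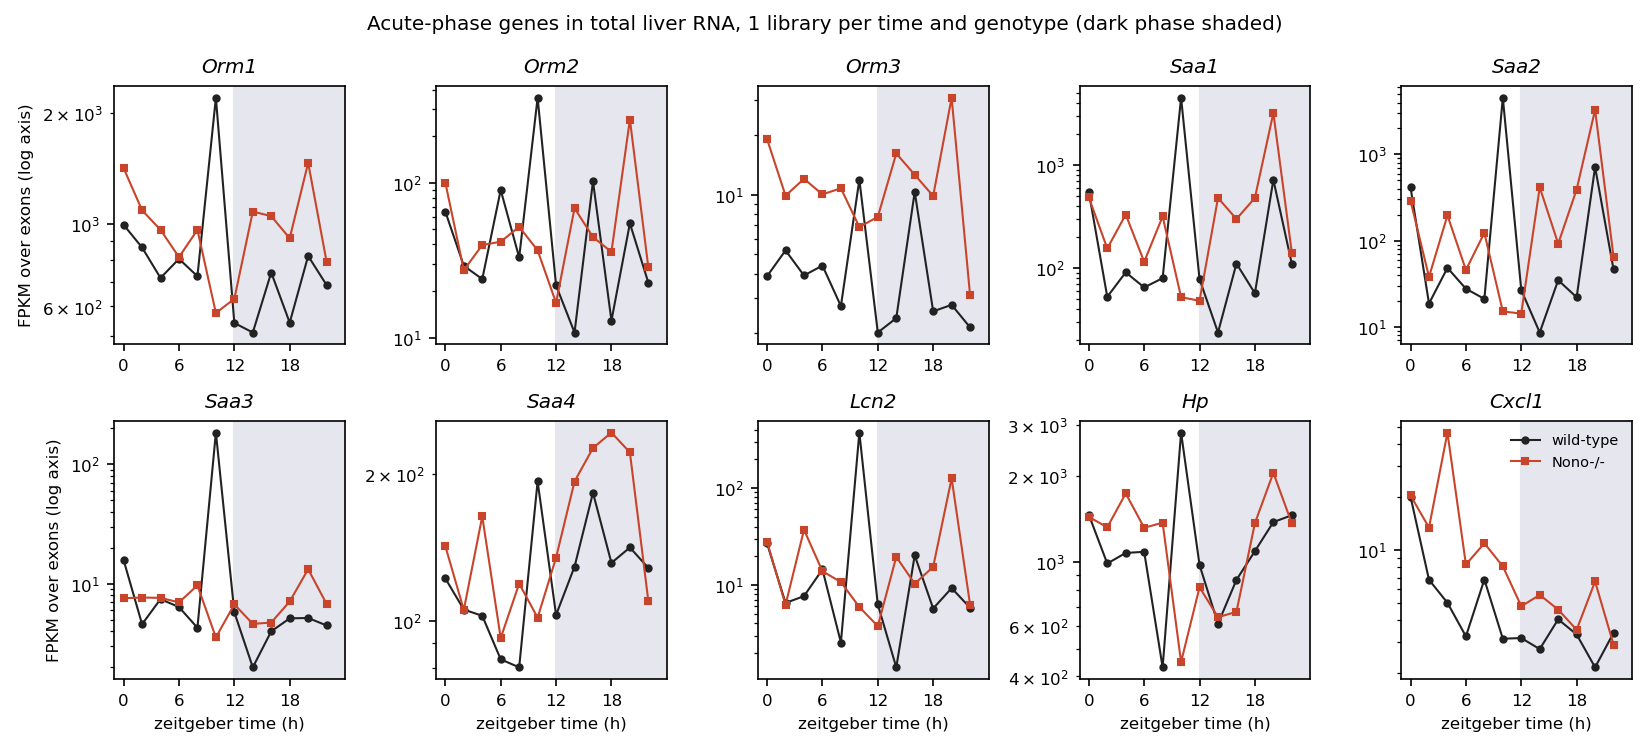
FPKM over exons of the 10 genes in total liver RNA (log axis, a scale of its own for each gene) against zeitgeber time in hours, with 1 point per library, wild-type in black circles, Nono-/- in red squares and the dark phase shaded. The wild-type library of ZT10 is the highest wild-type one in 9 of the 10 panels, Nono-/- Orm3 lies above wild type at 11 of 12 times, and Cxcl1 is highest in Nono-/- at ZT4 with 46.8 FPKM.

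Orm3, a minor orosomucoid gene next to Orm1, was the member with the clearest genotype effect, and it was higher in Nono-/- livers in each of the 4 measures. In total RNA exons it had 2.01, 3.33 and 11.9 FPKM (lowest, median and highest of 12 libraries) in wild type and 3.11, 10.4 and 30.9 FPKM in Nono-/-. The Nono-/- library was the higher one at every time but ZT10, and 5 Nono-/- libraries lay above the highest wild-type one, so the groups overlapped. The fitted difference was 1.47 ± 0.33 (log2 ± SE, limma adjusted p = 0.0095), and it rests on 800 wild-type and 1787 Nono-/- reads. In this measure 10.9% of the 11352 genes tested were called and 4.45% were called higher in Nono-/-, against 1 of 10 members, Orm3, which was called higher.

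In nuclear RNA exons Orm3 had 0.264, 0.924 and 1.95 FPKM in wild type and 0.795, 3.08 and 7.05 FPKM in Nono-/-. The Nono-/- library was higher at 10 of 12 times, all but ZT6 and ZT22, and 8 of the 12 lay above every wild-type library. The rise was 3.16-fold, or 1.66 ± 0.32 on the log2 scale (limma adjusted p = 0.00195). Of the 10500 genes tested 34.3% were called and 15.7% were called higher, and 2 of 10 members were called, Orm3 and Cxcl1, both higher.

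Introns of Orm3, which stand for its unspliced transcripts, were higher in Nono-/- as well. In total RNA they had 0, 0.143 and 0.322 FPKM in wild type and 0.115, 0.498 and 1.56 FPKM in Nono-/-, with Nono-/- higher at 12 of 12 times and 9 Nono-/- libraries above the highest wild-type one. The rise was 3.50-fold (log2 1.81 ± 0.32, limma adjusted p = 0.0015), from 88 and 287 intron reads. In nuclear RNA they had 0.216, 0.315 and 0.896 FPKM in wild type and 0.284, 1.26 and 3.0 FPKM in Nono-/-, again with 8 Nono-/- libraries above all of wild type and with ZT6 and ZT22 as the exceptions in direction. The log2 difference there was 1.36 ± 0.32 (limma adjusted p = 0.00848). In total introns 16% of 9422 genes were called and 6.62% were called higher, and in nuclear introns 18.1% of 12055 and 7.91%. Among the members 2 of 10 and 2 of 9 were called, Orm3 and Cxcl1 both times and both higher, and Saa3 introns in nuclei were too low to be tested.

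The call for Orm3 held in 33 of 34 alternatives in total exons, 34 of 34 in nuclear exons, 32 of 33 in total introns and 34 of 34 in nuclear introns, including each left-out library. It was lost in total RNA when each library's intron share entered the fit (1.25, limma adjusted p = 0.274 for exons, and 1.70, adjusted p = 0.139 for introns). That share differs between the genotypes, and with it only 23 of all genes were called in total exons.

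**Figure D2:**
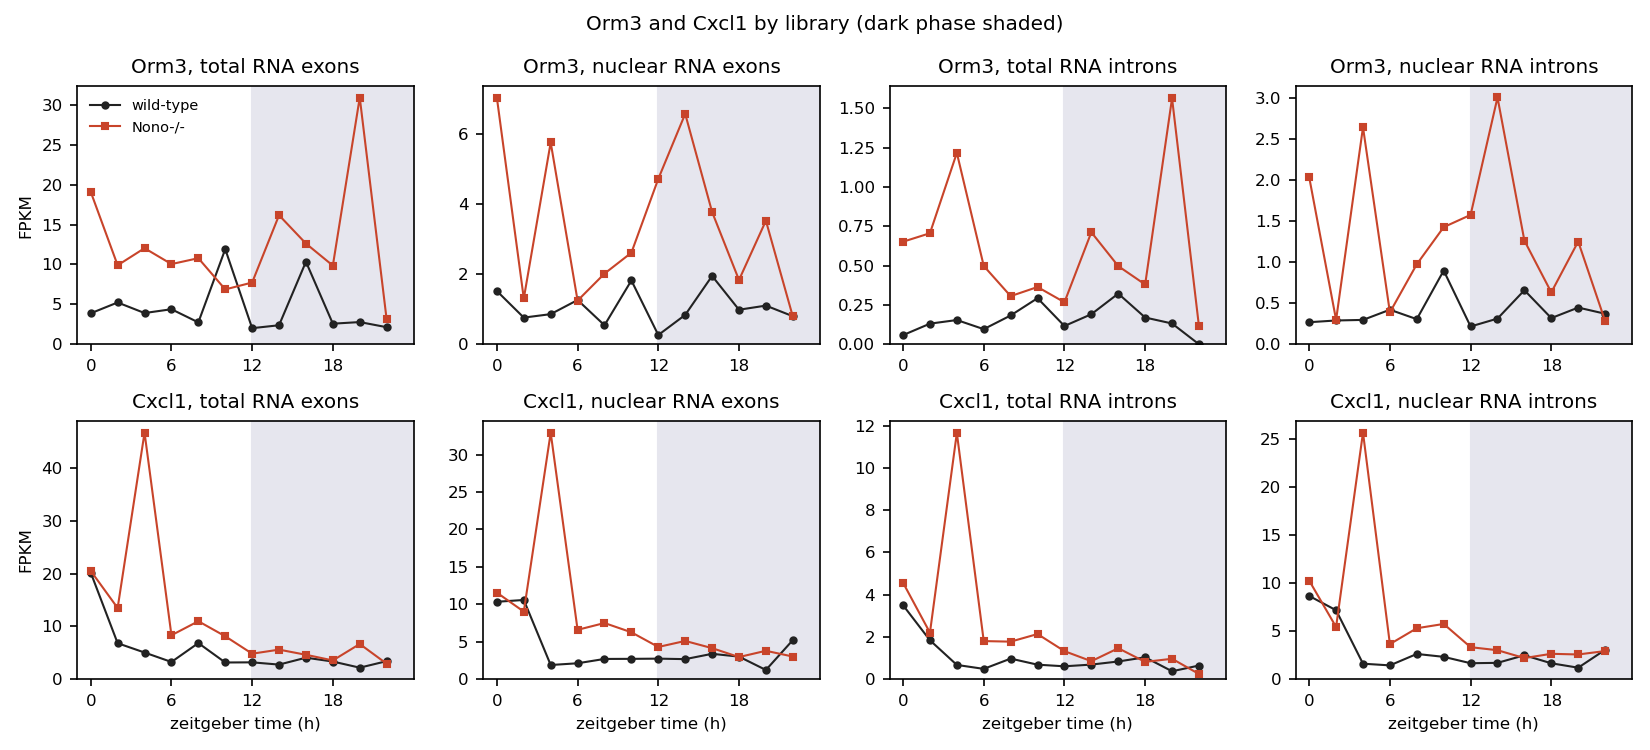
FPKM of Orm3 (upper row) and Cxcl1 (lower row) in total RNA exons, nuclear RNA exons, total RNA introns and nuclear RNA introns against zeitgeber time in hours, 1 point per library, wild-type in black circles and Nono-/- in red squares. Orm3 is higher in Nono-/- at 11, 10, 12 and 10 of the 12 times, and Cxcl1 is highest at ZT4 in Nono-/- in all 4 measures.

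Orm1, the main orosomucoid gene, had 510, 732 and 2194 FPKM in wild-type and 576, 966 and 1464 FPKM in Nono-/- total RNA exons. Nono-/- was higher at 11 of 12 times, all but ZT10, yet the difference of 0.26 ± 0.18 (log2) was within the spread (limma adjusted p = 0.372). It passed the threshold without the wild-type pool of ZT10, at 0.41 (adjusted p = 0.0432). Orm2 had 10.8, 31.0 and 355 FPKM in wild type and 16.8, 40.7 and 257 FPKM in Nono-/-, with Nono-/- higher at 7 of 12 times and a difference of 0.20 ± 0.47 (adjusted p = 0.831). Neither gene passed in nuclear exons (0.35 for Orm1 and 0.36 for Orm2), in introns of total RNA (0.46 and 0.73) or in introns of nuclei (0.40 and 0.34).

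The gap between Orm3 and its neighbours was measured within each library, a comparison chosen after the values had been seen. Orm3 had already been called in these same libraries, so the p-values of its ratios are no independent support. The permutation test exchanged libraries between genotypes without regard to time, so it left out the pairing by time that the counts of times use. Orm3 exons came to 0.501% of Orm1 exons in wild-type total RNA and 1.15% in Nono-/- total RNA (geometric means, n = 12 each). That ratio differed by 1.20 on the log2 scale and was higher at 11 of 12 times (2-sided permutation test, adjusted p = 0.00108 over 9 ratios). Against Orm2 the values were 9.64% and 23.2%, a difference of 1.27, higher at 12 of 12 times (permutation, adjusted p = 0.00162). In nuclear introns the ratio of Orm3 to Orm2 differed by 1.02 (adjusted p = 0.00176, 10 of 12 times) and that of Orm3 to Orm1 by 0.97 (adjusted p = 0.06, 9 of 12 times). As a contrast, Saa2 stood at 46.6% of Saa1 in wild type and 47.2% in Nono-/- total RNA exons, a difference of 0.017 (permutation p = 0.947).

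Saa1 and Saa2 encode the acute-phase serum amyloid A proteins, which bind high-density lipoprotein. Saa1 had 23.7, 85.2 and 4490 FPKM in wild-type and 48.1, 308 and 3203 FPKM in Nono-/- total RNA exons. Saa2 had 8.58, 31.2 and 4548 FPKM in wild type and 14.3, 108 and 3299 FPKM in Nono-/-. Both were higher in Nono-/- at 9 of 12 times, all but ZT0, ZT10 and ZT12, and in both the groups overlapped over nearly the whole range. The fitted differences were 0.84 ± 0.71 for Saa1 and 0.86 ± 0.92 for Saa2 (log2 ± SE, limma adjusted p = 0.484 and 0.601). These standard errors were the largest among the members in total exons.

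Saa3, the serum amyloid A gene known for expression outside hepatocytes as well, had 2.00, 5.16 and 185 FPKM in wild type and 3.56, 7.07 and 13.3 FPKM in Nono-/- total RNA exons. Saa4, the constitutive member of the family, had 80.2, 125 and 193 FPKM in wild type and 92.1, 139 and 244 FPKM in Nono-/-. It varied least of the family, with its highest library 2.41-fold over its lowest in wild type, where Saa2 reached 530-fold. Neither passed the genotype test (-0.07 ± 0.45, adjusted p = 0.941, and 0.25 ± 0.13, adjusted p = 0.225, limma). The sign of the Saa3 value turned with the intron share as covariate and without the wild-type pool of ZT0 or of ZT10.

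Lcn2, which encodes lipocalin 2, a binder of bacterial siderophores, had 1.41, 7.08 and 373 FPKM in wild-type and 3.75, 12.3 and 126 FPKM in Nono-/- total RNA exons (difference 0.44 ± 0.67, limma adjusted p = 0.729). Hp, which encodes the haemoglobin scavenger haptoglobin, had 430, 1081 and 2822 FPKM in wild type and 449, 1342 and 2045 FPKM in Nono-/- (difference 0.03 ± 0.21, adjusted p = 0.941). Both were higher in Nono-/- at 7 of 12 times, and their groups overlapped. Without the wild-type pool of ZT10 Hp introns in total RNA were higher in Nono-/- (0.56, adjusted p = 0.0318), where with it the difference was 0.40 (adjusted p = 0.22). Over all members the median difference was 0.35 in exons of total RNA, 0.28 in exons of nuclei, 0.61 in introns of total RNA and 0.10 in introns of nuclei, where over all genes tested it was 0, 0.005, 0.003 and -0.008.

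**Figure D3:**
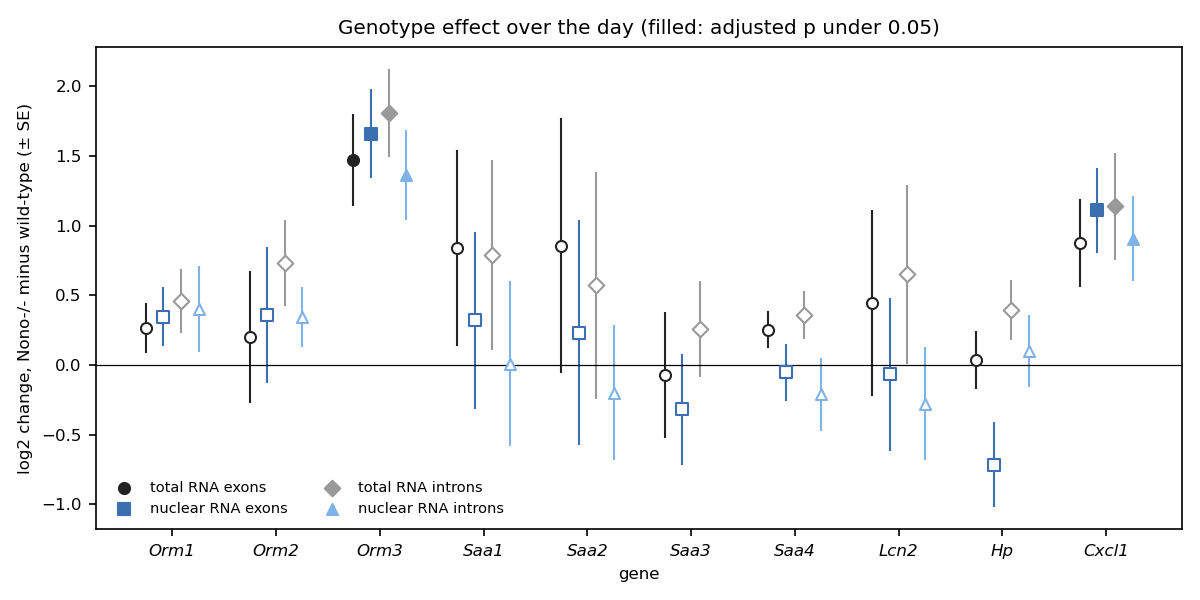
Log2 difference between Nono-/- and wild-type (points, with bars of 1 SE from the limma fit over 24 libraries) for each gene in total RNA exons, nuclear RNA exons, total RNA introns and nuclear RNA introns. Filled points passed an adjusted p of 0.05: Orm3 in all 4 measures, from 1.36 to 1.81, and Cxcl1 in 3, from 0.90 to 1.14.

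Cxcl1, a chemokine that draws neutrophils through the receptor CXCR2, was higher in Nono-/- in 3 of 4 measures. In nuclear RNA exons it had 1.22, 2.72 and 10.6 FPKM in wild type and 2.94, 5.67 and 32.9 FPKM in Nono-/-. All 12 Nono-/- libraries lay above the wild-type median and 2 above the highest wild-type library. The rise was 2.16-fold (log2 1.11 ± 0.31, limma adjusted p = 0.0107) and was lost in 1 of 34 alternatives, the intron share as covariate (adjusted p = 0.0769).

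Cxcl1 introns had 0.370, 0.684 and 3.50 FPKM in wild-type and 0.242, 1.62 and 11.7 FPKM in Nono-/- total RNA, a difference of 1.14 ± 0.38 (limma adjusted p = 0.0467). In nuclei they had 1.18, 2.00 and 8.64 FPKM in wild type and 2.18, 3.48 and 25.6 FPKM in Nono-/-, a difference of 0.90 ± 0.30 (adjusted p = 0.0440). Both calls lie close to the threshold: they were lost in 24 and 20 of 34 alternatives, among them 19 and 16 of the 24 left-out libraries. In total RNA exons Cxcl1 had 2.16, 3.36 and 20.2 FPKM in wild type and 2.91, 7.39 and 46.8 FPKM in Nono-/-, higher at 11 of 12 times, and the difference of 0.88 ± 0.31 did not pass (adjusted p = 0.0759). With each time point as a block it passed (adjusted p = 0.0265), so that 2 members were called there, and it passed without the wild-type pool of ZT0 (adjusted p = 0.0189), the Nono-/- pool of ZT6 (0.0466) and that of ZT22 (0.0252).

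Over the day the highest Cxcl1 levels were read between ZT0 and ZT4. In total RNA exons it stood at 20.2 FPKM at ZT0 in wild type, where the next library had 6.83 FPKM, and at 20.5 FPKM at ZT0 and 46.8 FPKM at ZT4 in Nono-/-. The 24 h curve passed in Nono-/- with a 4.57-fold swing and a peak at ZT4.18 (limma adjusted p = 0.0324), and in nuclear introns with a 4.14-fold swing and a peak at ZT4.04 (adjusted p = 0.0393). In wild type the swing did not pass (log2 peak to trough 1.29, peak at ZT2.43, adjusted p = 0.246). Without the Nono-/- pool of ZT4 neither rhythm passed (adjusted p = 0.155 for exons and 0.159 for nuclear introns). The exon rhythm was also lost without the Nono-/- pools of ZT2 (0.0523) or ZT18 (0.0659), and that of nuclear introns in 11 of 32 alternatives. At that time Cxcl1 rests on 704 exon and 171 intron reads of total RNA and 496 intron reads of nuclei.

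Of the 10 members in total exons limma called 0 rhythmic in wild type, against 31.6% of all genes, and 2 in Nono-/-, Saa4 and Cxcl1, against 29.6%. At an unadjusted p under 0.05 there were 0 members in wild type and 4981 of the 11352 genes. Saa4 peaked at ZT17.4 in Nono-/- with a 2.16-fold swing (limma adjusted p = 0.0102) and kept its call in 32 of 32 alternatives. In wild type its swing was 0.65 on the log2 scale with a peak at ZT16.8 (adjusted p = 0.139), and it passed without the pool of ZT10 (0.78, adjusted p = 0.0375). Hp also passed without that pool, with a log2 swing of 1.12 in wild type (adjusted p = 0.0257) and 1.30 in Nono-/- (adjusted p = 0.00598), against 0.44 (adjusted p = 0.677) and 1.29 (adjusted p = 0.0590) with it.

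In nuclear introns 1 of 9 members was rhythmic in wild type, Orm1, with a 4.96-fold swing and a peak at ZT19.6 (limma adjusted p = 0.0293), against 20.7% of all genes. In Nono-/- it was Cxcl1 alone, against 31.7%. The Orm1 rhythm was lost without the wild-type pools of ZT8 (adjusted p = 0.125), ZT10 (0.0512) or ZT22 (0.0605). In nuclear exons Orm1 passed in Nono-/- (limma adjusted p = 0.0300) and not in wild type (0.293), and likewise in total introns (0.0298 and 0.175). Over all genes 3235 of 10500 and 1364 of 9422 were called rhythmic in Nono-/- in these 2 measures. The difference in rhythm between genotypes was called by limma for 0 members and 0% of all genes in total exons and in nuclear introns. At an unadjusted p under 0.05 there were 1207 genes in total exons and 800 in nuclear introns, with 0 members among them, so a rhythm called in one genotype is not shown to differ from the other.

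The highest levels of most members were read in a few pools, as the map of fold over the median shows. In wild type 8 of 10 members were at least 2-fold over their median in the pool of ZT10, where 1.3% of all genes were. That pool was the highest of 12 for 9 of 10 members, all but Cxcl1, and for 6.7% of all genes tested. It stood over the wild-type median 146-fold for Saa2, 52.7-fold for Saa1 and Lcn2, 35.8-fold for Saa3, 11.4-fold for Orm2, 3.58-fold for Orm3, 2.99-fold for Orm1 and 2.61-fold for Hp, while Cxcl1 was at 0.936-fold. The nuclear library of the same pool, made from another portion of the livers, gave 74.3-fold for Saa2, 22.3-fold for Saa1, 19.7-fold for Lcn2, 8.50-fold for Saa3 and 7.55-fold for Orm2. Orm3 and Orm1 were at 1.97- and 1.67-fold in its nuclei, where Orm3 was highest at ZT16 and Orm1 at ZT0.

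**Figure D4:**
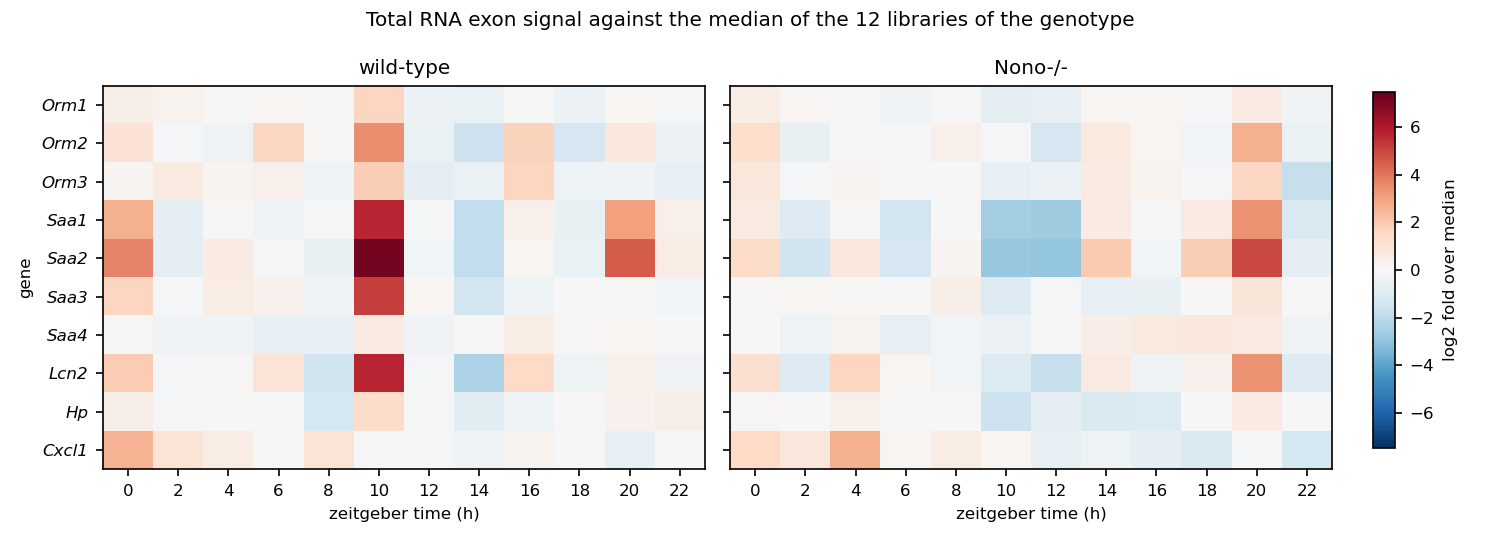
Log2 fold of each gene's total RNA exon FPKM over the median of the 12 libraries of its genotype, by zeitgeber time in hours, wild-type on the left and Nono-/- on the right (red above and blue below the median). The wild-type pool of ZT10 and the Nono-/- pool of ZT20 are red for Saa1, Saa2 and Lcn2, and Cxcl1 is near its median in both.

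In Nono-/- the pool of ZT20 was the highest for 8 of 10 members and for 3.74% of all genes tested. At least 2-fold over their median there were 5 of 10 members and 0.793% of all genes. This pool stood at 30.7-fold for Saa2, 10.4-fold for Saa1, 10.3-fold for Lcn2 and 6.31-fold for Orm2 over the Nono-/- median. Its nuclear library gave 26.6-, 12.6-, 4.69- and 6.90-fold for the same genes. A fold of 4 over the median was a limit set after the data were seen, and the share of all genes past it was not counted. By it the wild-type pool of ZT10 had 5 high members in total RNA and the Nono-/- pool of ZT20 had 4. The wild-type pools of ZT0 and ZT20 had 3 and 2, the Nono-/- pool of ZT4 had 1, Cxcl1, and the others had 0. In nuclei the counts of these pools were 5, 4, 2, 2 and 2, and the wild-type pool of ZT16 (Orm2, 4.46-fold) and the Nono-/- pool of ZT14 (Saa2, 4.07-fold) had 1 each.

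Intron reads of these pools differed between fractions. Saa1 introns stood at 30.3 FPKM in total RNA of the wild-type ZT10 pool, where the wild-type median was 0.766 FPKM, but at 1.33 FPKM in its nuclei, where the median was 0.308 FPKM and the wild-type pool of ZT0 was higher at 2.26 FPKM. The Nono-/- pool of ZT20 had 27.6 FPKM of Saa1 introns in total RNA and 2.85 FPKM in nuclei, the highest of its group in both. Lcn2 introns in nuclei of the wild-type ZT10 pool were at 0.432 FPKM beside a median of 0.0790 FPKM.

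The other positive acute-phase genes, 26 of 28 on the list tested, stood apart in the same wild-type pool. At ZT10 20 of the 26 (76.9%) were at their highest of 12 wild-type libraries, where 6.7% of all genes were, and 12 of 26 (46.2%) were at least 2-fold over their median, where 1.3% of all genes were. The genes named here were chosen after their values were seen. They included the metallothioneins Mt2 (9.57-fold) and Mt1 (5.46-fold), the pentraxin Apcs (5.91-fold), the protease inhibitor Serpina3n (4.19-fold), Fgl1 (3.87-fold), the lipopolysaccharide-binding protein Lbp (3.24-fold), Lrg1 (3.07-fold) and the haem carrier Hpx (2.53-fold). The fibrinogen genes Fgb and Fga were at 2.32- and 2.23-fold. The iron hormone genes Hamp and Hamp2 went the other way, at 0.230- and 0.259-fold, the lowest of 12. Among 11 negative acute-phase genes 2 were at their lowest there, Alb (0.674-fold) and Rbp4 (0.806-fold), where 4.48% of all genes were, and 1 was at its highest, the iron carrier gene Trf (1.28-fold). Of the 13 tested genes of the IL-6 and STAT3 pathway 0 were at their highest, and 3 of 9 chemokine genes were.

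In the Nono-/- pool of ZT20 5 of the 26 (19.2%) were at their highest, where 3.74% of all genes were, and 1 of 26 (3.85%) was at least 2-fold over its median, where 0.793% of all genes were. The Nono-/- pool of ZT4, the one with the most Cxcl1, had 13 of 26 (50%) at their highest, where 6.01% of all genes were, with Mt2 at 6.65-fold, Steap4 at 2.32-fold, Lrg1 at 2.28-fold and Lbp at 2.21-fold. At least 2-fold over their median there were 6 of the 26, 2 of 13 genes of the IL-6 and STAT3 pathway and 1 of 21 of the IL-1, TNF and NF-kB pathway, where 1.26% of all genes were. The last 3 were Socs3, the feedback inhibitor of STAT3 signalling (3.45-fold), Stat3 (2.52-fold) and Nfkb2 (2.62-fold). The glucocorticoid targets Per1 and Tsc22d3 were at their lowest there with 0.256- and 0.269-fold, as were 5.85% of all genes. Each of these folds is over a median across all zeitgeber times, so it includes any change with time of day. The part of time of day in these folds was not tested. At ZT0 Cxcl1 stood beside Ccl2, which draws monocytes, at 8.08-fold in wild type and 5.01-fold in Nono-/-, and beside Tnfaip3, an inhibitor of NF-kB signalling, at 6.04- and 2.79-fold. The wild-type pool of ZT0 was also high for Saa2 (13.3-fold), Saa1 (6.42-fold), Lcn2 (3.78-fold) and Saa3 (3.06-fold). In that pool 6 of 10 members were at least 2-fold over their median, where 0.802% of all genes were.

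**Figure D5:**
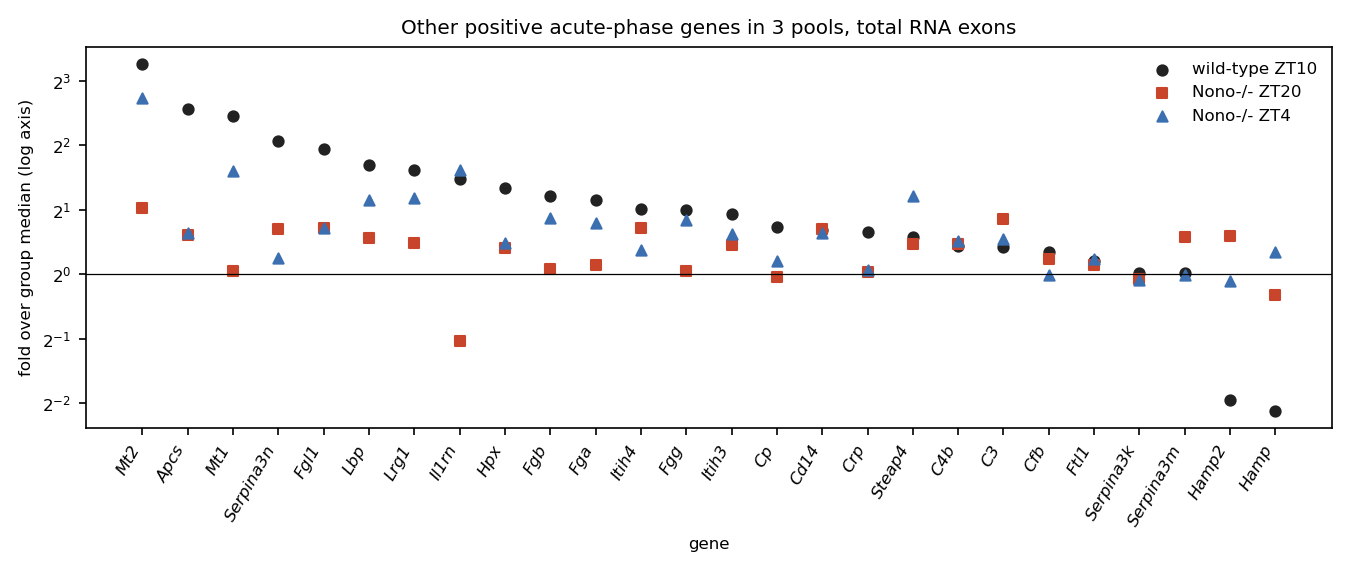
Fold over the median of the genotype's 12 libraries (log axis) in total RNA exons of the 26 other positive acute-phase genes tested, for the wild-type pool of ZT10 (black circles), the Nono-/- pool of ZT20 (red squares) and the Nono-/- pool of ZT4 (blue triangles). In the wild-type pool of ZT10 the genes run from 9.57-fold for Mt2 to 0.230-fold for Hamp.

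Markers of other cells were read beside these pools. Of the 11 neutrophil markers, summed in total RNA, the wild-type pool of ZT10 ranked 3 of 12 with 9.68 FPKM (range 1.24 to 66.2, highest at ZT6), and the Nono-/- pool of ZT20 had 7.79 FPKM (range 4.0 to 22.3, highest at ZT4). In the wild-type ZT10 pool S100a9 was at 5.10 FPKM (wild-type median 1.61) and S100a8 at 3.67 FPKM (median 2.60), and in the Nono-/- ZT20 pool S100a8 was at 5.07 FPKM (Nono-/- median 2.39) and S100a9 at 2.28 FPKM (median 2.36). Mpo, Camp and Ly6g were at 0 in both of these pools, as they were in 10, 7 and 11 of the 12 wild-type and 9, 6 and 9 of the 12 Nono-/- libraries. Elane was at 0.183 and 0.107 FPKM. Ngp was at 0.145 FPKM in the wild-type pool (median 0.101) and at 0 in the Nono-/- pool (median 0.0445). Ltf was at 0.077 FPKM (median 0.0595) and 0.072 FPKM (median 0.018). At such low levels these values do not show whether neutrophils were present. The 8 Kupffer cell markers summed to 186 FPKM in the wild-type pool of ZT10, the highest of wild type (from 73.5). There the 5 cholangiocyte markers came to 50.5 FPKM, also the highest (from 14.7), and the 7 hepatocyte markers to 30980 FPKM, the lowest. The hepatocyte sum holds Alb, the negative acute-phase gene at its lowest in this pool, so it is no count of hepatocytes. In nuclei of this pool the Kupffer cell, cholangiocyte and hepatocyte sums ranked 2, 3 and 5 of 12. The part of these cells in the levels of the members was not tested.

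Between genotypes, too, macrophage markers moved. In total exons 5 of 8 Kupffer cell markers were higher in Nono-/- by limma, where 4.45% of all genes were. Among them were Timd4 (0.46, limma adjusted p = 0.0183) and Cd5l (0.44, adjusted p = 0.0209, and 0.0537 with each time point as a block). With the block 3 of 8 were higher there, Clec4f being the other that was lost (adjusted p = 0.0458, and 0.119 with the block). Timd4, Cd5l, Adgre1 and Clec4f also lost their total exon calls with the intron share as covariate and with no time term. Higher too were 4 of 7 markers in nuclear exons (5 with the block), 5 of 7 in total introns (6 with the block) and 4 of 8 in nuclear introns, and 0 were lower. Of all genes 15.7%, 6.62% and 7.91% were called higher in these 3 measures. The values of these markers were also summed. Their sum was 73.5 to 186 FPKM in wild-type and 90.8 to 242 FPKM in Nono-/- total RNA. Neither of the 2 neutrophil markers tested in total exons was called by limma, and 0 passed an unadjusted p of 0.05. The part of macrophages in the Orm3 and Cxcl1 differences was not tested. With the wild-type ZT10 and Nono-/- ZT20 pools left out together, a choice made after the data were seen, the Orm3 difference passed in each of the 4 measures (1.47, 1.75, 1.71 and 1.44). Cxcl1 then passed in nuclear exons (1.15, limma adjusted p = 0.0193) but not in total introns (1.16, adjusted p = 0.0687) or nuclear introns (0.99, adjusted p = 0.0506).

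In total exons most members other than Cxcl1 varied together across livers. Over the 24 libraries of total exons, with the mean of each genotype removed, Pearson's r was 0.988 between Saa1 and Saa2, 0.890 between Orm2 and Lcn2, 0.850 between Orm1 and Saa1, 0.801 between Orm2 and Orm3 and 0.763 between Orm1 and Orm3. Among these 9 members the lowest value was 0.224, between Saa4 and Hp, and this pair had 0.027 within Nono-/- alone. In nuclear exons the lowest value among them was 0.059, between Saa3 and Saa4, with -0.365 within Nono-/- alone. For Cxcl1 with each other member r lay between -0.147 and 0.276 in total exons. In nuclear introns it lay between 0.116, with Orm1, and 0.646, with Lcn2. The genes most like the mean of the members were Fgl1 (0.862), Serpina3n (0.851), Apcs (0.847), Cyb561 (0.83) and Hpx (0.804), of which Cyb561 was on no list here. For Saa1 alone they were Fgl1 (0.791), Serpina3n (0.772), Apcs (0.76), Itih4 (0.749) and Hpx (0.727), and for Orm2 alone Tspan3 (0.75), Serpina3n (0.741), Apcs (0.725), Ptgs1 (0.725) and Mtfmt (0.689). For Cxcl1, added after its values were seen, Ccl2 came first (0.80). These values share the libraries and, in part, the pools named above.

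Nuclear and total RNA of the same liver gave different pictures by gene. Nuclear exon FPKM as a percentage of total RNA exon FPKM of the same pool is a ratio of libraries scaled apart, not a share of molecules, and can pass 100%. It had a median of 84.6% in wild type and 78.1% in Nono-/- for Cxcl1, 25.4% and 27.8% for Orm3 and 3.90% and 4.03% for Orm1. Hp had 2.67% (1.98 to 5.36%) in wild type and 1.59% (0.190 to 5.67%) in Nono-/-, lower in Nono-/- at 9 of 12 times. In the test of this ratio Hp was the only member called, lower by a log2 value of -0.75 ± 0.26 (limma adjusted p = 0.0472), where 19.6% of 9871 genes were called and 10.4% were called higher. It was lost in 24 of 33 alternatives and with each time point as a block. The summed hepatocyte markers were lowest among Nono-/- nuclei at ZT2, with 714 FPKM beside a median of 1560 FPKM, and that is also where the Hp percentage was lowest.

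Across livers, exon levels in total RNA followed nuclear introns for some members and not for others (n = 24 livers, genotype means removed). Pearson's r was 0.885 for Cxcl1, 0.691 for Saa2, 0.655 for Lcn2 and 0.608 for Orm3, but 0.103 for Orm1 and 0.095 for Hp. Against introns of the total RNA library r was 0.945 for Hp and 0.959 for Saa1. Mean intron FPKM in wild type was higher in total than in nuclear RNA for both, at 28.4 and 13.1 for Hp and 4.05 and 0.61 for Saa1. The same held for Saa2 (1.73 and 0.254) and Lcn2 (0.918 and 0.146). Total RNA introns of these genes are thus not read here as unspliced transcripts alone, and their source was not tested. Exons and introns of one library share its depth and its RNA preparation.

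How often genes that control and respond to the acute phase were called between genotypes depended on the measure, as it did for all genes, of which 10.9% were called in total exons and 34.3% in nuclear exons. Of all genes 736 of 11352 were lower in total exons, 1956 of 10500 in nuclear exons, 880 of 9422 in total introns and 1224 of 12055 in nuclear introns. Higher in the same order were 505, 1648, 624 and 953 genes. Without scaling the higher share of called genes in nuclear exons went from 45.7% to 10.1%, so counts by direction depend on the scaling. Of the 26 other positive acute-phase genes in total exons 1 was higher and 0 were lower: Hamp2 had 2.32, 8.98 and 16.2 FPKM in wild type and 5.62, 18.6 and 47.1 FPKM in Nono-/- (log2 1.30 ± 0.34, limma adjusted p = 0.0184, 9 Nono-/- libraries above all of wild type). With the intron share as covariate the Hamp2 call was lost (limma adjusted p = 0.188). So were all total exon calls named below except that of Cd36. In nuclear exons 1 of 23 was higher, Crp (0.41, adjusted p = 0.0103), and 1 was lower, Ftl1 (-0.71, adjusted p = 0.0148). Both calls were lost with the intron share as covariate. With each time point as a block 2 were higher and 5 lower. In total introns 3 of 25 were higher and 0 lower, and in nuclear introns 2 of 25 were higher and 0 lower, Hpx (0.88, adjusted p = 0.00388) and Crp (0.45, adjusted p = 0.0279). The Crp intron call was lost in 9 of 34 alternatives.

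Of the 11 negative acute-phase genes limma called 0 in total exons and 0 in total introns, where 2 and 8 had an unadjusted p under 0.05. In nuclear exons 4 of the 11 were lower and 0 higher, where 1956 of 10500 genes were lower. They were Igfals (-0.91, limma adjusted p = 0.0112), F12 (-0.52, adjusted p = 0.0145), the retinol carrier gene Rbp4 (-0.29, adjusted p = 0.0208) and Apoa1 (-0.43, adjusted p = 0.0236). All 4 calls were lost with the intron share as covariate. In nuclear introns 1 of 11 was lower and 0 higher, Apoa1 (-0.65, adjusted p = 0.0411), a call lost in 22 of 34 alternatives, and with the block 2 were higher and 1 lower.

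In the IL-6 and STAT3 pathway 0 of 13 tested genes were higher and 1 was lower in total exons, the phosphatase gene Ptpn11 (-0.16, limma adjusted p = 0.0261, lost in 7 of 34 alternatives). With the block 1 was higher and 2 lower. In nuclear exons 1 of 12 was higher, the kinase gene Jak2 (0.30, adjusted p = 0.0163, lost in 3 of 34 alternatives). There 5 were lower, among them the receptor gene Il6ra (-0.61, adjusted p = 0.00401) and Stat3 itself (-0.36, adjusted p = 0.0211). The Il6ra call was lost with no time term (limma adjusted p = 0.0824) and that of Stat3 with the intron share as covariate (0.123). In total introns 3 of 10 and in nuclear introns 3 of 13 were lower and 0 higher, Il6ra in both (-0.75, adjusted p = 0.00161, and -0.67, adjusted p = 0.00749). The total intron call of Il6ra was lost with the intron share as covariate and the nuclear one with no time term. Il6ra introns in total RNA were below wild type at 12 of 12 times, while its exons in total RNA did not pass (-0.33, adjusted p = 0.0651).

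In the IL-1, TNF and NF-kB pathway 0 of 21 genes were higher and 2 lower in total exons, the receptor gene Tnfrsf1b (-0.29, limma adjusted p = 0.0319, lost in 11 of 34 alternatives) and the kinase gene Irak1 (-0.19, adjusted p = 0.0241, and 0.0669 with the block). In nuclear exons 4 of 17 were higher and 4 lower, led by Il1b (1.22, adjusted p = 0.0022) and the lipopolysaccharide receptor gene Tlr4 (0.49, adjusted p = 0.0031) among the higher and by Tnfrsf1b (-0.41, adjusted p = 0.00679) and the NF-kB subunit gene Rela (-0.53, adjusted p = 0.00795) among the lower. The nuclear exon call of Tnfrsf1b was lost with no time term (limma adjusted p = 0.0527) and that of Rela with the intron share as covariate (0.0707). In total introns 2 of 18 were higher and 0 lower (4 with the block), and in nuclear introns 3 of 23 were higher and 0 lower: Il1b (1.40 ± 0.23, adjusted p = 0.00142), Il1a (0.46, adjusted p = 0.0129) and Nfkbiz (0.26, adjusted p = 0.0175). With no time term the Il1a and Nfkbiz calls were lost, and without scaling that of Nfkbiz was lost too. Il1b introns in nuclei had 0.243, 0.509 and 1.47 FPKM in wild type and 0.561, 1.37 and 3.48 FPKM in Nono-/-, with Nono-/- higher at 11 of 12 times. Its exons in total RNA did not pass (0.24, adjusted p = 0.561).

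Of the C/EBP, glucocorticoid and other liver factors and targets 2 of 10 were lower in total exons, Per1 (-0.93 ± 0.22, limma adjusted p = 0.0131) and Hnf4a (-0.23, adjusted p = 0.0339, lost in 16 of 34 alternatives), and 0 were higher. In nuclear exons 3 of 9 were lower, among them Hnf4a (-0.59, adjusted p = 0.00151) and Per1 (-1.24, adjusted p = 0.00212), and 1 was higher, the glucocorticoid receptor gene Nr3c1 (0.29, adjusted p = 0.0118). The Nr3c1 call was lost without scaling and with the intron share as covariate. Hnf4a, which encodes a central transcription factor of hepatocytes, had nuclear introns of 8.01, 11.3 and 14.8 FPKM in wild type and 3.69, 7.49 and 11.4 FPKM in Nono-/-, lower in Nono-/- at 12 of 12 times (-0.61, adjusted p = 0.00244). In introns 2 of 7 were lower in total RNA and 3 of 7 in nuclei, and 0 were higher.

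Of 9 chemokine genes 2 were higher and 0 lower in total exons, Ccl6 (0.67, limma adjusted p = 0.00209) and Ccl9 (0.40, adjusted p = 0.0217), both from macrophages and other myeloid cells. Ccl6 was also the 1 of 4 higher in nuclear exons (0.45, adjusted p = 0.00832), a call lost without scaling. In total introns 1 of 6 was higher (3 with the block), and in nuclear introns limma called 0 of 8, with 1 at an unadjusted p under 0.05. Of the 7 genes for receptors and handling of the members' products 2 were higher and 0 lower in total exons, the haptoglobin-haemoglobin receptor Cd163 of macrophages (0.53, adjusted p = 0.0048, higher at 11 of 12 times) and the scavenger receptor Cd36 (0.47, adjusted p = 0.00531). In nuclear exons 1 of 5 was higher, Cd36 (0.54, adjusted p = 0.00314), and 1 lower, the haemopexin receptor gene Lrp1 (-0.75, adjusted p = 0.0212). The Lrp1 call was lost with the intron share as covariate. In introns 2 of 5 were higher in total RNA and 1 of 7 in nuclei (3 with the block), and 0 were lower.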

How the data were processed

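RNA of 48 mouse liver libraries was prepared with the TruSeq Stranded Total RNA kit and Ribo-Zero Gold, per the labels' protocols. FastQC 0.11.2, STAR 2.4.0k and the build mm10 are named in the submitters' processing notes. The authors deposited FPKM per RefSeq gene over exons and over introns, made with HOMER's analyzeRepeats.pl with genes condensed, per the file headers, which show no strand option. HOMER's version and the treatment of reads matching several genes are not given in the sources used here. Depth was read from the steps of low FPKM values, which gave whole reads (within 0.1 read) for 100% of them, and p-values do not use it.

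Values were divided by median-ratio size factors and tested as log2(FPKM + 0.1) for exons and log2(FPKM + 0.05) for introns with limma 3.58.1 (R 4.3.3, trend) over the 24 libraries of a measure, with terms for genotype, a 24 h cosine curve and their products. Fold changes are on that scale, which understates those of low genes. The tests covered genes whose mean reached 0.5 FPKM in exons or 0.1 FPKM in introns, and p-values were adjusted by Benjamini-Hochberg over all of them, with a threshold of 0.05. Same-time samples of the 2 genotypes deviated together from the means of their genotypes (r over 0.1 in 12 of 12 pairs in total exons, 0.143 to 0.563, and in 11 to 12 pairs in the other measures). The 24 h curve was not removed for this, so rhythms shared by the genotypes enter these r values. The fit with time as a block is given where it changes a member's genotype call. For the other gene lists it is given in part, and counts without a block value can differ with it. Ratios between members were tested by 2-sided permutation of libraries between genotypes, without regard to time (100000 resamples, scipy 1.17.1, Python 3.11.15). The scripts were tested on simulated data. Members, gene lists and tests were chosen with earlier results of these data known. Of each list up to 4 called genes per comparison, and the 5 genes most like the members, Orm2 or Saa1, were named by rule. Alternatives covered the pseudocount, filter, scaling, time term, intron share and each left-out library. Transcripts were compared and promoters searched with Biopython 1.88.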

Additional observations from a re-analysis of the deposited data

How the results depend on the processing

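The calls for Orm3 kept their direction in each alternative run. The 6792 alternative values include counts of called genes as well as test values. Of them 6108 kept direction and side of the threshold or, for counts, stayed near the main count. A further 47 reversed, in 14 of 87 results on members, of which 0 were called in the main analysis. Without a filter on low values, 1 member was called rhythmic in Nono-/- total exons and 0 in Nono-/- nuclear introns, and 1, 1 and 0 members were called for genotype in total introns, nuclear introns and the nuclear to total ratio. With each time point as a block, the replicate block given by the shared sampling times, 2 members were called in total exons, and for the ratio 1120 genes and 0 members, where the curve gave 1934 genes and 1 member. Hp in nuclear exons then passed (-0.71, limma adjusted p = 0.0315). The block changed no other member's call for genotype beside Cxcl1 in total exons and Hp. With no time term 173, 2045, 807, 808 and 238 genes were called in total exons, nuclear exons, total introns, nuclear introns and the ratio, with 1, 1 and 0 members in the last 3.

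With the intron share as covariate the calls were 23, 1062, 25 and 1004 genes and 0, 1, 0 and 1 members in the same 4 measures, and 0 members were rhythmic in Nono-/- nuclear introns. Values that then changed sign were Saa3 (0.0072) and Hp (-0.12) in total exons, Lcn2 (0.27) in nuclear exons and Hp (-0.024) in total introns. This covariate was not used for the ratio. With the wild-type ZT10 and Nono-/- ZT20 pools left out, added after seeing the data, Saa3 in total exons (0.29) and Saa4 (0.021) and Lcn2 (0.18) in nuclear exons changed sign. There were then 2 members rhythmic in wild-type total exons, 0 and 0 in nuclear introns of wild type and Nono-/-, 1 member called in nuclear introns and 0 for the ratio. A filter 4 times stricter gave 1853 genes in nuclear exons, 705 genes and 1 member in total introns and 1216 genes for the ratio, with fewer genes tested. Without scaling, total introns gave 3546 genes and 1 member and the ratio 2 members, with Orm1 (-0.15), Orm2 (-0.054) and Orm3 (-0.023) changing sign for the ratio. The higher share of called genes went from 40.7% to 58.6% in total exons, from 45.7% to 10.1% in nuclear exons, from 41.5% to 2.88% in total introns and from 53.1% to 7.27% for the ratio, and the median gene moved by -0.198 in nuclear exons and -0.212 in total introns. A pseudocount 10 times higher turned Saa3 in total introns (-0.012) and Orm2 (-0.016) and Orm3 (-0.18) for the ratio, and one 10 times lower left 0 members called for the ratio. The cause of these changes was not tested.

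With each library left out in turn, total exons gave 818 to 1603 genes and 1 to 2 members, and 0 to 2 and 1 to 3 members were rhythmic in wild type and Nono-/-. Orm2 ranged from -0.012 to 0.49, Saa3 from -0.25 to 0.38 and Hp from -0.083 to 0.21. In nuclear exons Saa2 ranged from -0.10 to 0.86, Saa4 from -0.14 to 0.034 and Lcn2 from -0.27 to 0.35. Total introns gave 1 to 2 members. Nuclear introns gave 1 to 2 members for genotype and 0 to 1 rhythmic in each genotype, and Saa1 ranged from -0.24 to 0.28, Saa2 from -0.45 to 0.038 and Hp from -0.044 to 0.23. For the ratio, 1094 genes were called without the Nono-/- pool of ZT6 and 3687 without that of ZT0, and 0 to 1 members. Orm3 introns in total RNA rest on few reads, 88 over the 12 wild-type libraries.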
